A study of Mus musculus with 9 samples.

Results

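The 4 RNAs described here were RNase MRP RNA (Rmrp), RNase P RNA (Rpph1), telomerase RNA (Terc) and the small nucleolar RNA Snora23, out of 24318 genes listed in each of 2 expression tables. They were taken by symbol, as small noncoding RNAs whose function rests on a folded structure, and all 4 were present in both tables with a mean over 1 FPKM, the limit for testing. Measured values had a part in the choice. Snora23 was selected on its rise in EXOSC3-depleted cells and Rmrp on its share of all expression, while Rpph1 and Terc were taken as further RNAs of the same class. The changes of Snora23 and the share of Rmrp are therefore given as descriptions without a test. The cells were N2A (Neuro2A), an established mouse neuroblastoma line labelled wild type, and every library came from cells transfected with an siRNA by Lipofectamine 2000. The 3 groups were cells that received scramble siRNA, cells that received EXOSC3 siRNA (siEXOSC3) and cells that received DDX1 siRNA (siDDX1), with 3 libraries each and 9 in all. Total RNA was depleted of ribosomal RNA and sequenced without strand information. Expression is given as FPKM, the number of fragments scaled to transcript length and to a library size. How library size was set is not given in the sources used here. The values of scramble replicates 1, 2 and 3 differed between the 2 tables by median factors of 1.008, 1.008 and 1.012. The same 3 scramble libraries served both comparisons, and each knockdown was compared with scramble inside its own table.

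RNase MRP and RNase P are related ribonucleoproteins that share most of their protein subunits. RNase MRP takes part in the processing of ribosomal RNA precursors, and RNase P removes the 5′ leader of tRNA precursors. Telomerase RNA carries the template from which TERT, the reverse transcriptase, adds telomere repeats, and its 3′ part has the H/ACA fold that it shares with snoRNAs such as Snora23, which guide the conversion of uridine to pseudouridine. The RNA exosome, of which EXOSC3 is a cap subunit, trims or degrades the 3′ ends of many noncoding RNAs, and DDX1 is an RNA helicase.

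On NCBIM37 (mm9), Rmrp lies at chr4:43505660-43505930 on the minus strand and is 271 bases long. Its position overlaps Ccdc107, a coding gene on the opposite strand, so that without strand information reads of the 2 genes cannot be told apart there. Rpph1 lies at chr14:51427124-51427442 on the minus strand (319 bases), with the start of Parp2 on the plus strand 179 bases away. Terc lies at chr3:96218360-96218782 on the minus strand (423 bases), and the nearest annotated gene is a U1 snRNA gene at a distance of 7874 bases. Snora23 lies at chr7:117189878-117190061 on the plus strand (184 bases), inside intron 13 of the 25-exon importin gene Ipo7 and on the same strand. GENCODE vM1 classes the first 3 as miscellaneous RNA and Snora23 as snoRNA. It holds no entry named Rpph1, and the miscellaneous RNA beside Parp2 was taken for it. Rpph1 is 67.1% G or C, Terc 67.1% and Rmrp 64.2%, while Snora23 is 43.5% G or C. RefSeq gives other lengths for 3 of them, 275 bases for Rmrp, 325 for Rpph1 and 397 for Terc. The annotated ends therefore need not be those of the RNA. The sequences printed are those of the annotated genes, 5′ to 3′ and from the genome on the strand of the gene.
Rmrp, all 271 bases: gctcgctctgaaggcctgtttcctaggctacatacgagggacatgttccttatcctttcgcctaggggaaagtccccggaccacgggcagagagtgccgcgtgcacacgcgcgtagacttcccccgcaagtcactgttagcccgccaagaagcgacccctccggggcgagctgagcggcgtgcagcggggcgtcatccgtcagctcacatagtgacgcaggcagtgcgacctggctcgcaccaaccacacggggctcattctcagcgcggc
Rpph1, bases 1 to 150: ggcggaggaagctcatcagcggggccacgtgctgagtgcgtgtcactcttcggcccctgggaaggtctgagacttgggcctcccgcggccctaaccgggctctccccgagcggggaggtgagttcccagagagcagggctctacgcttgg
Terc, bases 1 to 150: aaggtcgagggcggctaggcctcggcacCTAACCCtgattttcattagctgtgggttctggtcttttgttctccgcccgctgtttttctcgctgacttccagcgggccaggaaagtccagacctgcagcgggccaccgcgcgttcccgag
Snora23, all 184 bases: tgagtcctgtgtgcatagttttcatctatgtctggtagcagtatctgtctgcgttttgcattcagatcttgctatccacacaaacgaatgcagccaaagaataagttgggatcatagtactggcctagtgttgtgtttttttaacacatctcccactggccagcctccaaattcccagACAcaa
The capitals in Terc mark the letters CTAACCC of the telomere template, which begin at base 29 of the annotated gene. The same letters stood on either strand in 2.69% of 32851 promoter windows of 300 bases from RefSeq. The capitals in Snora23 mark the ACA box, which stands 3 bases before the annotated 3′ end and gives H/ACA RNAs part of their name.

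The libraries were checked before the RNAs were compared. Exosc3 FPKM fell from 44.1 ± 1.56 (SD, n = 3) in scramble to 6.84 ± 0.836 (SD, n = 3) in siEXOSC3 cells, and Ddx1 FPKM fell from 125 ± 5.40 (SD, n = 3) to 30.5 ± 3.73 (SD, n = 3) in siDDX1 cells (limma, adjusted p = 1.11e-05 and 9.53e-05). Of 11 neuroblastoma markers, 9 had a mean of at least 1 FPKM, led by Hand2 at 123 FPKM in scramble. Nefm and Th were below that limit, at 0.067 and 0.18 FPKM in scramble, and Gata3 and Stmn2 were low at 2.27 and 2.96 FPKM. Of 15 markers of fibroblasts, myeloid cells and glia, 4 were listed at 0 in all 9 libraries and the other 11 stayed under 3 FPKM. Among these, the glial marker Mbp and the myeloid marker Cd68 also averaged over 1 FPKM in scramble, at 2.12 and 1.18 FPKM. The sequencing depth cannot be recovered from FPKM in absolute terms. Depth relative to scramble replicate 1, read from the step of a single fragment in low genes, ranged from 0.827 to 1.20.

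Rmrp was the most abundant of the 4 RNAs and its FPKM did not pass the test in either knockdown. In the siEXOSC3 table, Rmrp measured 96630, 107756 and 88719 FPKM in scramble replicates 1, 2 and 3. It measured 121111, 106517 and 70793 FPKM in siEXOSC3 replicates 1, 2 and 3. The siEXOSC3 libraries thus held both the highest and the lowest value, and the groups overlapped. On the scale log2(FPKM + 1), on which all changes are given, Rmrp changed by -0.01 with an SE of 0.256 and a 95% interval of -0.59 to 0.58 (limma, adjusted p = 0.989). In the siDDX1 table the scramble values were 95869, 106919 and 87678 FPKM, and those of siDDX1 replicates 1, 2 and 3 were 154240, 130447 and 88219 FPKM. Replicates 1 and 2 of siDDX1 lay above every scramble library and replicate 3 lay among them. The log2 change of Rmrp was 0.33 with an SE of 0.576 and a 95% interval of -0.99 to 1.65 (limma, adjusted p = 0.746). The upper end of this interval corresponds to a 3.14-fold rise, but its width depended on the fit. The SE was 0.193 without the intensity trend of limma, 0.214 with a replicate block and 0.643 with median centring. The log2 change was 0.15 without siDDX1 replicate 1, 0.56 without siDDX1 replicate 3 and 0.17 with each library scaled to an equal sum outside short noncoding genes. Rmrp made up 12.7 to 14.3% of the summed FPKM of scramble libraries, 10.1 to 15.5% in siEXOSC3 and 11.9 to 17.3% in siDDX1. As Rmrp is the highest value of each library, no gene of like FPKM exists to set its spread against.

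Rpph1 was nearly equal in scramble and siEXOSC3 cells. It measured 3187, 3118 and 2573 FPKM in scramble replicates 1, 2 and 3 and 3257, 2691 and 2955 FPKM in siEXOSC3 replicates 1, 2 and 3. The groups overlapped. The log2 change was 0.01 with an SE of 0.120 (limma, adjusted p = 0.972), with a 95% interval of -0.27 to 0.28, or 0.831 to 1.21 times scramble. In the siDDX1 table the scramble libraries held 3162, 3093 and 2543 FPKM and the siDDX1 libraries 4159, 3397 and 2404 FPKM. The highest and the lowest value were both siDDX1 libraries, as replicate 1 lay above and replicate 3 below all scramble libraries. The log2 change was 0.15 with an SE of 0.207 and a 95% interval of -0.33 to 0.62 (limma, adjusted p = 0.666). Its direction turned under quantile normalization (-0.18), scaling outside short noncoding genes (-0.012) and without siDDX1 replicate 1 (-0.030), and it was 0.36 without siDDX1 replicate 3 (limma, adjusted p = 0.0666).

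Terc values were higher on average in each knockdown, yet neither change passed the adjusted test. Terc measured 49.8, 44.1 and 53.3 FPKM in scramble replicates 1, 2 and 3 and 72.5, 74.7 and 46.0 FPKM in siEXOSC3 replicates 1, 2 and 3. Replicates 1 and 2 of siEXOSC3 lay above all scramble libraries and replicate 3 lay within their range. The log2 change was 0.36 with an SE of 0.171 and a 95% interval of -0.03 to 0.75 (limma, adjusted p = 0.139, with an exact two-sided permutation p of 0.3). Without siEXOSC3 replicate 3 it was 0.58 with an adjusted p of 0.00240 (limma), and without siEXOSC3 replicate 1 or 2 it was 0.26 or 0.24 with an adjusted p of 0.356 or 0.274 (limma). In the siDDX1 table Terc measured 49.4, 43.8 and 52.7 FPKM in scramble and 110, 64.7 and 55.4 FPKM in siDDX1 replicates 1, 2 and 3. All 3 siDDX1 libraries lay above all scramble libraries, which was the case for 17.0% of all genes tested in that table. The log2 change was 0.59 with an SE of 0.217 and a 95% interval of 0.09 to 1.08 (limma, adjusted p = 0.115), and the exact two-sided permutation test gave p = 0.1, the smallest that 3 libraries against 3 allow. Without siDDX1 replicate 3, the lowest of the 3, the log2 change was 0.78 with an adjusted p of 0.00860 (limma). Without siDDX1 replicate 1, the highest, it was 0.30.

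Snora23 differed most from scramble. It measured 30.4, 25.2 and 69.8 FPKM in scramble replicates 1, 2 and 3 and 105, 263 and 221 FPKM in siEXOSC3 replicates 1, 2 and 3. The lowest siEXOSC3 library lay above the highest scramble library, as it did for 23.8% of all genes tested, and the log2 difference was 2.24 with an SE of 0.415. The mean FPKM of Snora23 in siEXOSC3 cells was 4.69 times that in scramble. In the siDDX1 table Snora23 measured 30.2, 25.05 and 69.0 FPKM in scramble and 56.0, 92.4 and 133 FPKM in siDDX1 replicates 1, 2 and 3. Replicate 1 of siDDX1 fell below scramble replicate 3, so the groups overlapped, and the log2 difference was 1.22 with an SE of 0.397. Leaving out single libraries moved the log2 difference between 1.96 and 2.68 in siEXOSC3 and between 0.92 and 1.65 in siDDX1. The high value of scramble replicate 3 enters each comparison, since both use the same controls.

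**Figure D1:**
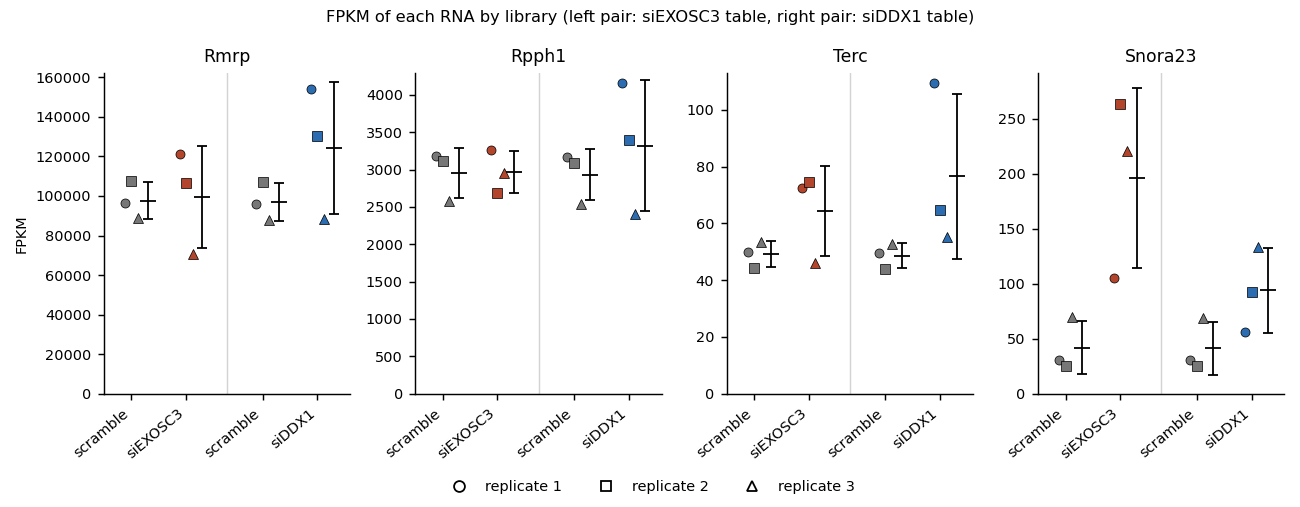
Listed FPKM of Rmrp, Rpph1, Terc and Snora23 in each library (points, with the shape giving the replicate), with mean and SD of 3 libraries to the right; the vertical axes are linear, start at 0 and differ between panels. In these listed values only Snora23 in siEXOSC3 and Terc in siDDX1 lie wholly above scramble, and replicate 3 is the lowest siEXOSC3 library for Rmrp and Terc and the lowest siDDX1 library for Rmrp, Rpph1 and Terc.

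The listed FPKM of the 4 RNAs were ordered within a group. FPKM is scaled to length, but the effective length used for RNAs this short is unknown, so the order and the ratios between RNAs hold for the listed values alone. In scramble Rmrp was highest at 97702 ± 9564 FPKM (SD, n = 3), followed by Rpph1 at 2959 ± 336 FPKM (SD, n = 3). Terc at 49.1 ± 4.63 FPKM and Snora23 at 41.8 ± 24.4 FPKM (SD, n = 3 each) came last and their libraries overlapped. In siEXOSC3 cells the last 2 were separated, with Snora23 at 105 or more and Terc at 74.7 FPKM or less, and in siDDX1 cells they overlapped again. Within a library the FPKM of Rmrp was 30.3 to 34.6 times that of Rpph1 in scramble, 24.0 to 39.6 times in siEXOSC3 and 36.7 to 38.4 times in siDDX1. The siDDX1 ratios of these 2 related RNAs lay within a narrow range although their FPKM values spread widely between the same libraries. The ratio was looked at after the values were known. Terc came to 1.42 to 2.07% of Rpph1 in scramble, 1.56 to 2.78% in siEXOSC3 and 1.91 to 2.64% in siDDX1, and these ranges overlapped.

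The host gene of Snora23 moved little. Ipo7, which encodes a nuclear import receptor, measured 118 ± 8.90 FPKM in scramble and 126 ± 10.1 FPKM in siEXOSC3 (SD, n = 3 each), a log2 change of 0.09 that did not pass the test (limma, adjusted p = 0.410). In siDDX1 its log2 change was 0.21 (limma, adjusted p = 0.134). Snora23 thus amounted to 0.202 to 0.646 of the Ipo7 FPKM in scramble, 0.849 to 2.24 in siEXOSC3 and 0.417 to 1.07 in siDDX1. The ratio did not overlap between scramble and siEXOSC3 libraries, and as it contains the FPKM of Snora23 it is a description too. Whether the fragments counted for Snora23 came from the mature snoRNA or from longer transcripts that contain it was not tested, because FPKM per gene does not hold their ends.

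**Figure D2:**
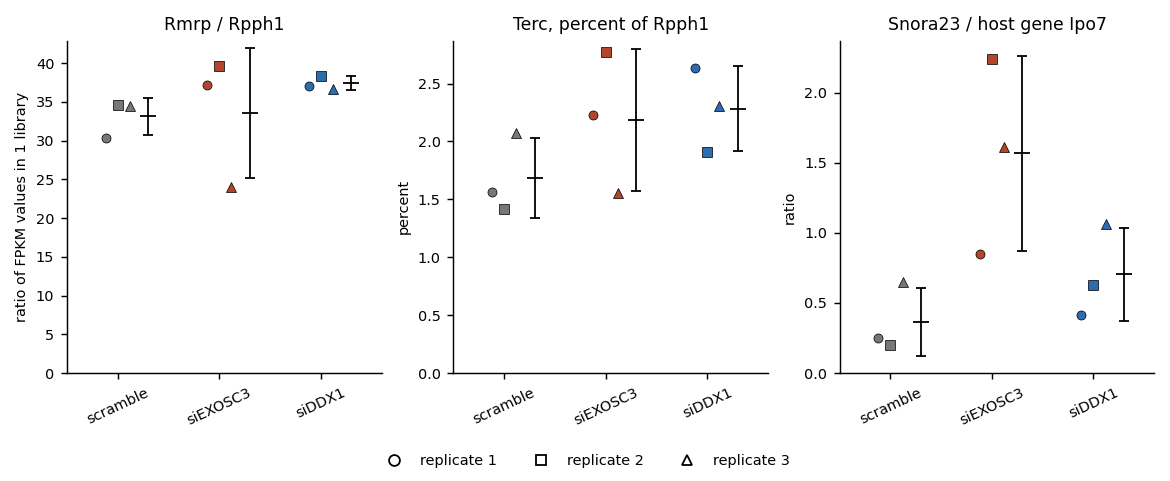
Ratios formed inside each library, Rmrp over Rpph1 (left), Terc in percent of Rpph1 (middle) and Snora23 over its host gene Ipo7 (right), as points with mean and SD of 3 libraries beside them and axes that start at 0. Scramble is drawn once, from the siEXOSC3 table, and Snora23 over Ipo7 reaches 0.849 to 2.24 in siEXOSC3 against 0.202 to 0.646 in scramble.

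Genes beside the other RNAs were given the same fit. The host and neighbour list held 5 tested genes, among them Mynn, which does not neighbour Terc in mouse. Of these 5, 1 rose and 2 fell (Arhgef39 and Mynn) in siEXOSC3, beside 16.7% and 15.7% of all genes. None passed the test in siDDX1, where 1 that was higher and 2 that were lower had an unadjusted p under 0.05 (limma), beside 15.1% and 15.0% of all genes. The count of 3 in siEXOSC3 was 1 without scramble replicate 1 or siEXOSC3 replicate 1 and 0 without the filter on low FPKM. Ccdc107, the coding gene that overlaps Rmrp, rose from 10.8 ± 0.932 to 18.2 ± 3.25 FPKM in siEXOSC3 (SD, n = 3 each), a log2 change of 0.70 (limma, adjusted p = 0.00613). Its highest siEXOSC3 library was replicate 3 at 21.1 FPKM, which was the lowest library of that group for Rmrp. In siDDX1 the log2 change of Ccdc107 was 0.28 (limma, adjusted p = 0.260). Parp2, which encodes a DNA repair enzyme and starts next to Rpph1, had log2 changes of -0.17 in siEXOSC3 and 0.10 in siDDX1, neither past the test (limma, adjusted p = 0.1005 and 0.398). Arhgef39, listed with the genes around Rmrp, fell by 0.61 on the log2 scale in siEXOSC3 (limma, adjusted p = 0.0272), and its change of -0.40 in siDDX1 did not pass the test (limma, adjusted p = 0.0812). Mynn, Actrt3, Lrrc34 and Lrriq4 neighbour the telomerase RNA gene in human and not in mouse. Mynn fell by 0.33 on the log2 scale in siEXOSC3 (limma, adjusted p = 0.0151), with -0.21 in siDDX1 (limma, adjusted p = 0.105), and the other 3 were under 1 FPKM and were not tested.

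Short RNAs as a class were barely seen in these tables, which limits what their FPKM can show. Of 1289 rows of short noncoding classes, 1156 were microRNAs and 113 snoRNAs, and 1279 were listed at 0 in all 9 libraries. The 10 rows above 0 were the 4 RNAs described here and Scarna13, Scarna6, Snord17, Snora74a, Snora78 and Snora81. No row shorter than 157 bases was above 0, although 1273 of the 1286 rows with a RefSeq length were shorter than that. Of the 4 RNase P RNA rows, Rpph1 alone was above 0 and the 3 rows Rprl1, Rprl2 and Rprl3 were listed at 0. Such zeros can be failed estimates, and they do not show that an RNA was absent.

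Scarna13, a guide RNA of Cajal bodies with the same RefSeq length as Rmrp (275 bases), rose in both knockdowns. It measured 1051, 1266 and 1016 FPKM in scramble and 1972, 1839 and 1806 FPKM in siEXOSC3 replicates 1, 2 and 3. Its log2 change was 0.76 with an SE of 0.103 (limma, adjusted p = 0.00233). In siDDX1 it measured 1883, 1914 and 1639 FPKM, with a log2 change of 0.72 and an SE of 0.120 (limma, adjusted p = 0.0126). Neither knockdown overlapped scramble, as was the case in the same direction for 23.8% of all genes in siEXOSC3 and 17.0% in siDDX1, and 16.7% and 5.61% were called as increased. Scarna13 values spread less between libraries of a knockdown (4.69 and 8.33% coefficient of variation, or CV) than those of any of the 4 RNAs. Snora78, an H/ACA snoRNA of 157 bases, was listed at 0 in scramble, at 676, 0 and 1237 FPKM in siEXOSC3 and at 537, 0 and 0 FPKM in siDDX1. It did not pass the test in siEXOSC3 or siDDX1 (limma, adjusted p = 0.0554 and 0.364), and no fold is given against a group listed at 0. Snora81, chosen after its values were seen, was listed at 0 in scramble and siEXOSC3 and at 0, 126 and 248 FPKM in siDDX1. Snord17, Scarna6 and Snora74a were above 0 in every library and none passed the test in either knockdown, with log2 changes of 0.10, -0.10 and -0.39 in siEXOSC3 and 0.26, 0.51 and -0.70 in siDDX1.

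The spread between libraries of 1 group was larger for Snora23 and Terc than for most genes of like FPKM. Snora23 had a CV of 58.3% over the scramble libraries, and none of 3145 other genes with an FPKM between 0.5 and 2 times its mean had a larger one. Their median CV was 4.49%. In siEXOSC3 the CV of Snora23 was 41.7%, against a median of 7.69% for 662 such genes, of which 2 had a larger CV. Terc had a CV of 9.42% in scramble, against a median of 4.40% for 2795 such genes. In siEXOSC3 it rose to 24.8%, exceeded by 59 of 2167 genes, and in siDDX1 to 37.9%, exceeded by 7 of 1837. Rpph1 had a CV of 11.4% in scramble and 9.54% in siEXOSC3, where 18 of 60 genes of like FPKM had a larger one, and of 26.5% in siDDX1. The CV of Rmrp was 9.79% in scramble, 26.0% in siEXOSC3 and 26.9% in siDDX1, with no gene of like FPKM beside it. Over all tested genes the median CV was 6.05% in scramble, 9.44% in siEXOSC3 and 8.98% in siDDX1.

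Short coding genes were set beside the 4 RNAs, library by library. Coding genes whose longest transcript had at most 600 bases, with a mean of at least 10 FPKM, were compared with the scramble mean in each library. Their median log2 difference was 0.07, 0.03 and -0.20 in siEXOSC3 replicates 1, 2 and 3 over 97 genes. It was 0.26, 0.10 and 0.12 in siDDX1 replicates 1, 2 and 3 over 95 genes, and between -0.04 and 0.02 in the scramble libraries. The 3 siDDX1 libraries lay above scramble for short coding genes, as they did for Terc, and siEXOSC3 replicate 3 lay lowest, as it did for Rmrp and Terc and not for Rpph1. In siDDX1 replicate 3 the short coding genes lay above scramble (0.12) and above replicate 2 (0.10), whereas that library was the lowest siDDX1 library for Rmrp (-0.13), Rpph1 (-0.28) and Terc (0.19). The libraries of the 4 RNAs thus followed the short coding genes in some cases and not in others. Coding genes over 2000 bases differed by at most 0.07 in any library. When this median difference was subtracted from each library, an alternative chosen after seeing the data, the log2 change in siDDX1 was 0.17 for Rmrp, -0.0087 for Rpph1, 0.43 for Terc and 1.06 for Snora23. In siEXOSC3 it was 0.029 for Rmrp, 0.041 for Rpph1, 0.39 for Terc and 2.28 for Snora23. After the subtraction Terc overlapped scramble in siDDX1, where the lowest siDDX1 library stood at 0.069 and the highest scramble library at 0.108. In siEXOSC3 the same values were 0.111 and 0.102, and how many other genes separate under this subtraction was not counted. The part of transcript length in the changes of the 4 RNAs was not tested further.

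**Figure D3:**
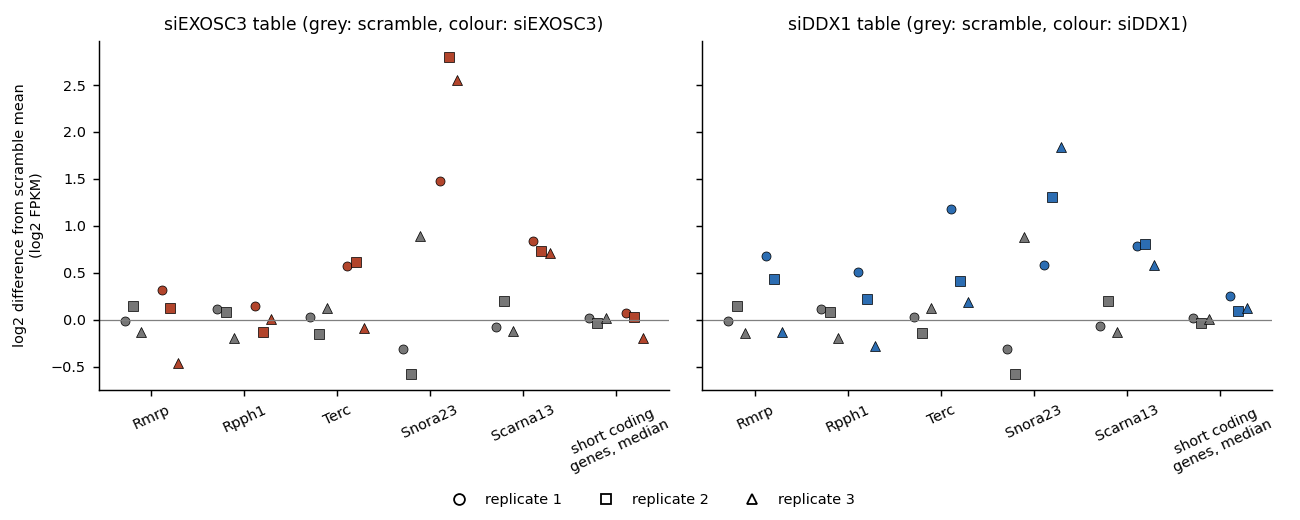
Log2 difference of each library from the mean log2 FPKM of the scramble libraries for the 4 RNAs, Scarna13 and the median short coding gene (97 genes left, 95 right), with the shape giving the replicate. Snora23 and Scarna13 stand above the median short coding gene in every siEXOSC3 library, and siDDX1 replicate 1 is the highest siDDX1 library for Rmrp, Rpph1, Terc and the short coding genes.

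**Figure D4:**
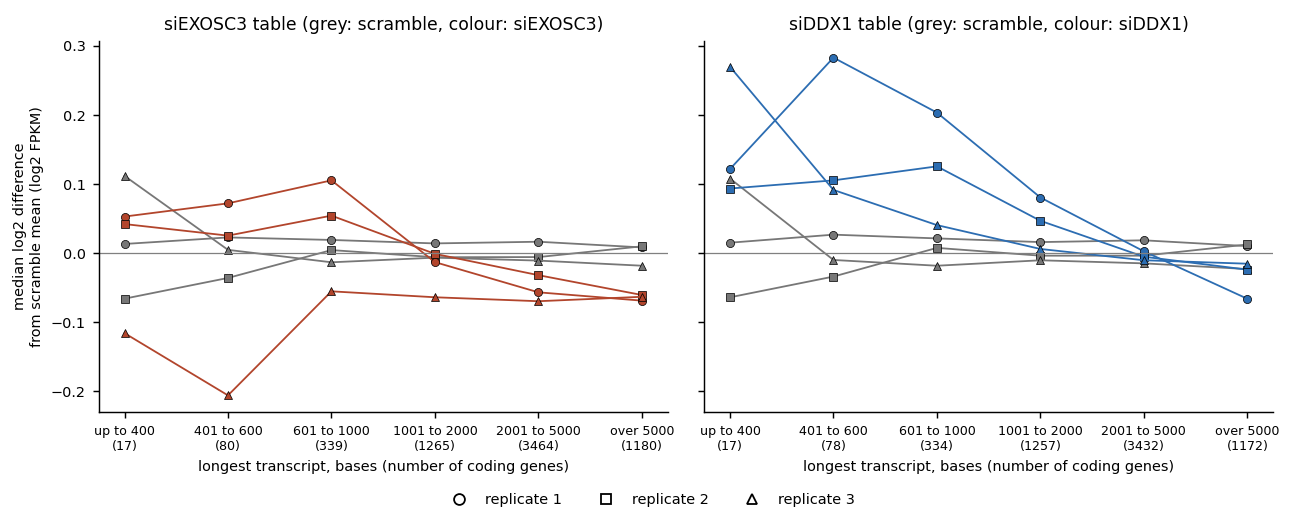
Median log2 difference from scramble of coding genes by length of their longest transcript, 1 line per library, with the number of genes in each class under the axis (the shortest class rests on 17 genes). The lines lie within 0.07 of 0 for genes over 2000 bases and spread to between -0.21 and 0.28 for genes over 400 and up to 600 bases.

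The genes whose values over the 6 libraries of a table were most like each RNA are given as a description, by the smaller of the Pearson correlations in the 2 tables among 11054 genes. The tables share their scramble libraries, so the 2 correlations are not separate evidence. For Rmrp these were Chchd1 (0.99 and 0.95), Ndufb5 (0.95 and 0.97) and the box C/D snoRNA Snord17 (0.96 and 0.95), with the siEXOSC3 table given first. For Rpph1 they included Psmb1 (0.90 and 0.92) and Slc15a4 (0.90 and 0.89). For Terc they were Churc1 (0.95 and 0.96), Zfand2b (0.95 and 0.96) and Tceb2 (0.93 and 0.96). For Snora23 they were Pik3c2b (0.95 and 0.94), Klf5 (0.95 and 0.94) and Cdr2l (0.93 and 0.97). The correlation of Rmrp with Rpph1 was 0.34 over the libraries with siEXOSC3 and 0.93 over those with siDDX1.

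The proteins that bind Rmrp and Rpph1 were examined next. Of the 11 protein subunits of RNase P and RNase MRP, all tested, 1 rose and 2 fell in siEXOSC3, where 16.7% of 11242 genes rose and 15.7% fell. Rpp21, a subunit of RNase P, rose from 21.5 ± 3.61 to 32.4 ± 0.658 FPKM, a log2 change of 0.59 (limma, adjusted p = 0.00716). Rpp30 and Pop4 fell by 0.54 and 0.45 on the log2 scale (limma, adjusted p = 0.00873 and 0.0282). In siDDX1 Rpp21 rose by 0.53 (limma, adjusted p = 0.0348) and Rpp25 fell by 0.65 on the log2 scale (limma, adjusted p = 0.0304), where 5.61% of 11104 genes rose and 5.03% fell. Pop1, the largest protein subunit common to both enzymes, changed by -0.07 in siEXOSC3 and -0.29 in siDDX1, neither past the test (limma, adjusted p = 0.741 and 0.200). The count of 3 called subunits in siEXOSC3 ran from 2 to 4 when single libraries were left out, and was 0 without the filter on low FPKM. The siDDX1 calls were both lost when any of the 3 scramble libraries or siDDX1 replicate 1 or 2 was left out. The median log2 change over the 11 subunits was -0.07 in siEXOSC3 and 0.06 in siDDX1, beside -0.014 and -0.00059 over all genes tested.

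Of the 7 core proteins and assembly factors of H/ACA particles, to which Snora23 and Terc belong, 3 fell and none rose in siEXOSC3, beside 15.7% and 16.7% of all genes. Nolc1, Nhp2 and Gar1 fell by 0.38, 0.37 and 0.36 on the log2 scale (limma, adjusted p = 0.0420, 0.0247 and 0.0296). Dkc1, the pseudouridine synthase of these particles, changed by -0.32 (limma, adjusted p = 0.0927). The median of the 7 genes was -0.32 in siEXOSC3 and 0.13 in siDDX1. None of the 7 passed the test with limma in siDDX1, where 3 that were higher and 1 that was lower had an unadjusted p under 0.05, beside 15.1% and 15.0% of all genes. The count of called genes in siEXOSC3 fell from 3 to 0 when any of the 3 scramble libraries or siEXOSC3 replicate 1 was left out, and rose to 5 without siEXOSC3 replicate 2. Among 6 further partners of telomerase, Pinx1, which encodes a telomerase inhibitor, and Tgs1, a cap methyltransferase that acts on telomerase RNA, fell by 0.81 and 0.37 on the log2 scale in siEXOSC3 (limma, adjusted p = 0.0180 and 0.0122), beside 15.7% of all genes that fell. Tert changed by -0.15 in siEXOSC3 and -0.08 in siDDX1 (limma, adjusted p = 0.321 and 0.660), and none of the 6 passed the test in siDDX1, where 1 that was lower had an unadjusted p under 0.05 (limma), beside 15.0% of all genes. The median of the 6 was -0.23 in siEXOSC3 and -0.08 in siDDX1. The count of called partners in siEXOSC3 was 0 without scramble replicate 1 and 1 without scramble replicate 2 or siEXOSC3 replicate 1.

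Of 14 genes for enzymes and cofactors that trim the 3′ ends of small RNAs, 2 fell in siEXOSC3, beside 15.7% of all genes. None passed the test in siDDX1, where 2 that were higher had an unadjusted p under 0.05 (limma), beside 15.1% of all genes. The median log2 change of the 14 was -0.12 in siEXOSC3 and 0.01 in siDDX1. Toe1, a deadenylase that acts on small nuclear RNAs, fell by 0.56 and Skiv2l2, the helicase that feeds the nuclear exosome, fell by 0.21 on the log2 scale (limma, adjusted p = 0.0226 and 0.0314). Without siEXOSC3 replicate 2, 5 of the 14 were called. The count was 1 without scramble replicate 2 and 0 without scramble replicate 1, scramble replicate 3 or siEXOSC3 replicate 1. It was 1 with median centring and 0 with a replicate block or without the filter on low FPKM. Parn, a deadenylase that matures Terc, changed by -0.05 in siEXOSC3 and 0.06 in siDDX1 (limma, adjusted p = 0.617 and 0.660). Exosc10, the nuclear exonuclease of the exosome, changed by -0.09 and 0.19 (limma, adjusted p = 0.295 and 0.0852).

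Of 21 genes for factors of small RNA promoters and RNA polymerase III, which transcribes Rmrp and Rpph1, 6 fell and none rose in siEXOSC3, beside 15.7% and 16.7% of all genes, while 1 rose and 3 fell in siDDX1, beside 5.61% and 5.03%. The median log2 change of the 21 was -0.14 in siEXOSC3 and -0.06 in siDDX1. Polr3f, a polymerase III subunit, fell by 0.63 and 0.51 on the log2 scale in siEXOSC3 and siDDX1 (limma, adjusted p = 0.00687 and 0.0229). Brf2, an initiation factor of such promoters, fell by 0.34 and 0.39 (limma, adjusted p = 0.0260 and 0.0373). Snapc4 and Snapc2, subunits of the small nuclear RNA activating complex, fell by 0.42 and 0.37 in siEXOSC3 (limma, adjusted p = 0.00457 and 0.00738), and Snapc5 fell by 0.39 in siDDX1 (limma, adjusted p = 0.0468). The called gene with the smallest change in siDDX1 was Polr3b, which rose. Ssb, the La protein that binds the 3′ ends of polymerase III transcripts, changed by -0.03 and -0.07 (limma, adjusted p = 0.741 and 0.662). The 6 calls of siEXOSC3 were 3 without scramble replicate 1 or siEXOSC3 replicate 1. The 4 calls of siDDX1 were 1 without scramble replicate 2 or siDDX1 replicate 2, 0 without scramble replicate 1, scramble replicate 3 or siDDX1 replicate 1, and 8 without siDDX1 replicate 3.

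**Figure D5:**
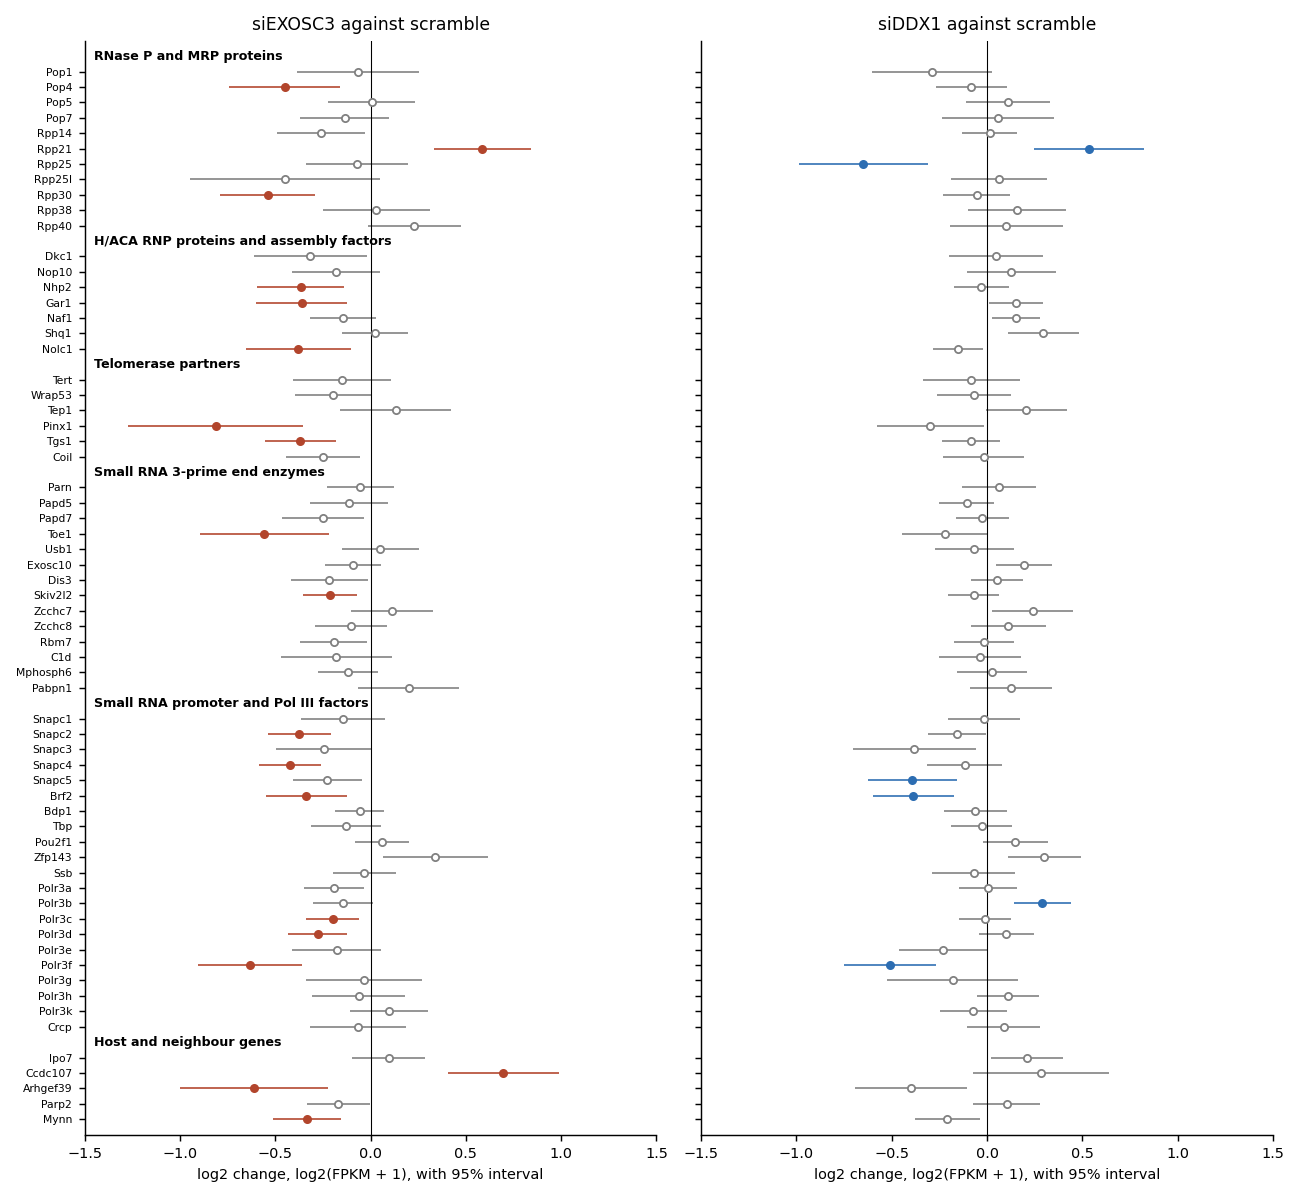
Log2 change with its 95% interval for every tested gene of 5 partner lists and for the host and neighbour genes, in siEXOSC3 (left) and siDDX1 (right). Filled points passed an adjusted p of 0.05, and among partner genes Rpp21 is the one filled point to the right of 0 in siEXOSC3, with Rpp21 and Polr3b to the right in siDDX1.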

How the data were processed

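RNA-seq libraries of 9 N2A cultures were used, in 3 groups of 3 taken from the sample titles. Reads were mapped on mm9 by the authors with TopHat2 (version 2.1.0), handled with SAMtools and passed to Cuffdiff (version 2.2.1), and FPKM per gene and library were deposited in 2 tables. The annotation used by Cuffdiff is not given in the sources used here. As FPKM are no counts, limma (version 3.58.1, under R 4.3.3) was applied to log2(FPKM + 1), for genes averaging 1 FPKM or more in a table, with eBayes and its intensity trend. Tests were two-sided with Benjamini-Hochberg adjustment over all genes fitted, and calls were made at 0.05. This scale understates changes of low genes. The fit was tested on data with known changes. Positions, classes and sequences came from GENCODE vM1 and NCBIM37, RNA lengths and promoters from RefSeq. Depth is unknown, so no interval rests on counts.

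The 4 RNAs, the partner lists and the rule for named genes were chosen with earlier results of these data known. The rule named the 4 RNAs, both targeted genes, each host or neighbour gene, up to 3 called genes per list and knockdown, 7 fixed partners (Pop1, Dkc1, Tert, Parn, Exosc10, Snapc4 and Ssb), the 3 genes most like each RNA (1 of those for Rpph1 is not reported here), and the 5 other short noncoding rows of highest FPKM in the siEXOSC3 table. Polr3b was named beyond it, after its value was seen. Alternatives comprised a smaller pseudocount (0.1), omission of the expression filter or a minimum of 5 FPKM, quantile normalization, median centring, scaling to an equal sum outside short noncoding genes, omission of the intensity trend, a replicate block and leaving out each library.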

Additional observations from a re-analysis of the deposited data

How the results depend on the processing

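Quantile normalization gave Rpph1 a log2 change of -0.064 in siEXOSC3 and -0.18 in siDDX1, and scaling each library to an equal sum outside short noncoding genes gave -0.011 and -0.012, against 0.01 and 0.15 as reported. Median centring gave Rmrp 0.018 in siEXOSC3 against -0.01. Quantile normalization yields no change for Rmrp, which is the top value of every library. No such change of Rmrp or Rpph1 passed the test, and the cause of the reversals was not tested. Leaving out single libraries moved Rmrp from -0.17 to 0.22 and Rpph1 from -0.091 to 0.075 in siEXOSC3, and Rpph1 from -0.030 to 0.36 and Rmrp from 0.15 (without siDDX1 replicate 1) to 0.56 (without siDDX1 replicate 3) in siDDX1, where scaling outside short noncoding genes gave Rmrp 0.17 against 0.33. Terc ran from 0.24 to 0.58 in siEXOSC3 and from 0.30 to 0.78 in siDDX1, past the test only without replicate 3 of the knockdown (limma, adjusted p between 0.00240 and 0.356 and between 0.00860 and 0.255).

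Centring each library on the median level of all tested short coding genes, also added after seeing the data, gave Rmrp, Rpph1, Terc and Snora23 log2 changes of 0.082, 0.093, 0.44 and 2.33 in siEXOSC3 and 0.24, 0.067, 0.50 and 1.13 in siDDX1, so that the sign for Rpph1 in siDDX1 depended on how these genes were used.

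The count of called genes was 3644 in siEXOSC3 and 1182 in siDDX1. Leaving out a library gave 1607 (scramble replicate 1) to 4886 (siEXOSC3 replicate 2) and 163 (scramble replicate 3) to 3527 (siDDX1 replicate 3). No filter on low FPKM gave 1435 and 176, and scaling outside short noncoding genes gave 1855 in siDDX1. Without the filter, no called gene was left (0) among RNase P and MRP proteins in either knockdown, among H/ACA proteins, telomerase partners, 3′ end enzymes and host or neighbour genes in siEXOSC3, or among promoter and polymerase III factors in siDDX1. The same setting gave Rmrp an SE of 69.2 in siEXOSC3 and 105.6 in siDDX1, against 0.256 and 0.576 as reported. Its variance estimates thus differed widely from those of the main fit, and its counts say little about the lists. The cause was not tested. In siEXOSC3, leaving out a library gave 0 to 5 called H/ACA proteins, 0 to 3 telomerase partners, 0 to 5 3′ end enzymes, 3 to 7 promoter and polymerase III factors and 1 to 3 host or neighbour genes, and median centring gave 1 3′ end enzyme. In siDDX1 it gave 0 to 3 RNase P and MRP proteins, 0 to 1 H/ACA proteins, 0 to 1 telomerase partners, 0 to 2 3′ end enzymes, 0 to 8 promoter and polymerase III factors and 0 to 2 host or neighbour genes. There, a mean FPKM of at least 5 gave 1 RNase P and MRP protein, as did scaling outside short noncoding genes, which also gave 1 H/ACA protein and 2 host or neighbour genes. Quantile normalization and median centring each gave 1 H/ACA protein in siDDX1.

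The sample titles do not say whether equal replicate numbers mark a shared culture. The deviations of same-numbered scramble and knockdown libraries correlated at 0.03, -0.31 and -0.13 in siEXOSC3 and at -0.01, 0.38 and 0.37 in siDDX1. The highest correlation of each scramble library with a differently numbered knockdown library was 0.15, 0.26 and 0.20 in siEXOSC3. In siDDX1 it was 0.04, 0.15 and -0.15, so replicates 2 and 3 correlated most with their own number there. A shared effect of the replicate number was not tested further. With a replicate block the log2 changes of the 4 RNAs were as reported (Terc 0.36 and 0.59, limma adjusted p = 0.185 and 0.0624) and no call among them changed. With the replicate block the count of called genes was 2449 in siEXOSC3 against 3644 and 1893 in siDDX1 against 1182. In siDDX1 this included 1 H/ACA protein, 1 3′ end enzyme, 1 host or neighbour gene and 6 promoter and polymerase III factors (against 4), and in siEXOSC3 0 3′ end enzymes.

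Groups of 3 libraries cannot pass below p = 0.1 in an exact test. The length that Cuffdiff assigned to RNAs this short is unknown.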
